A study of Danio rerio with 6 samples.

Results

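Smad2 binding was measured by chromatin immunoprecipitation with sequencing (ChIP-seq) against input chromatin, which is whole chromatin that was not immunoprecipitated, in zebrafish blastulas. The data described here are the 4 libraries titled Smad2_ChIP1, Smad2_ChIP2, Input1 and Input2, of 6 in the series. Both groups were prepared from wild-type AB embryos that had reached the high-sphere stage, were pooled and were fixed in formaldehyde. The values are 1 coverage track for Smad2, 1 for input, and 1 list of 898 Smad2 peaks, of which 880 lay on the 25 chromosomes and 18 on unplaced sequences. All 898 peaks were described, together with 1357018 windows of 1 kb on chr1 to chr25. Each peak had been found by the study in both Smad2 reactions against input, so the excess of Smad2 over input at the peaks is part of how they were chosen, and it is given as a description with no test. With 1 track per group there is no error between replicates. The intervals given below for summit ratios cover counting error only.

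Smad2 is the transcription factor through which Nodal ligands act. Activated Nodal receptors phosphorylate it, and it then enters the nucleus, where it joins Smad4 and DNA-binding partners such as Foxh1 at regulatory elements. In the zebrafish blastula this pathway specifies mesoderm and endoderm, and the dorsal organizer forms under strong Nodal signalling. The pathway switches on its own ligands and its own inhibitors, the Lefty proteins.

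The Smad2 track held an estimated 12.6 M tags and the input track 19 M tags, each tag being drawn as about 132 bp. At each position the tracks count the tags that cover it, with a mean of 1.18 tags for Smad2 and 1.78 tags for input. Levels are therefore given as multiples of the mean of the same track, and the ratio of Smad2 to input is the quotient of these multiples. The highest number of Smad2 tags in a peak is called its height, and the position where it is reached its summit.

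Peaks are named by their number in the list and by the genes listed for them as annotation, which lie within 10 kb of the peak. Positions are on the Zv9 build. Whether a peak lies in an exon, an intron or between genes was not analysed here. Short stretches that match the binding site of Foxh1 are also listed with the peaks. Such a stretch was found for 375 of the 898 peaks. In 281 of these stretches (74.9%) the letters AATNNACA were found, read as they are listed. The stretches had been picked as matches to a known Foxh1 site, so letters that recur in them are partly given by that choice. The share of other genomic regions that hold these letters was not measured. The stretches listed for peaks at the organizer genes flh, chd and gsc, at the Nodal inhibitors lft1 and lft2, at the mesodermal T-box gene ntla, and at the endodermal genes bon, MIXL1 and foxa are shown here because the peaks below are compared by them. Capitals mark AATNNACA.
flh, Smad2_peak130, chr13:14830670-14831037: ctcAATACACA
flh, Smad2_peak131, chr13:14831703-14832204: ttcAATACACA
flh, Smad2_peak132, chr13:14833022-14833314: tccAATACACA
chd, Smad2_peak233, chr15:46180191-46180704: ctgAATAAACA
gsc, Smad2_peak270, chr17:19176993-19177569: tccAATAAACA
gsc, Smad2_peak271, chr17:19184969-19185282: ggcAATACACA
lft1, Smad2_peak407, chr20:35102427-35103109: tccAATCCACA
lft2, Smad2_peak263, chr17:8154964-8155371: tccAATCCACA
lft2, Smad2_peak264, chr17:8157945-8158448: ttgAATACACA
ntla, Smad2_peak343, chr19:30643031-30643517: ctcAATCCACA
bon, Smad2_peak408, chr20:43755302-43755950: ccgAATACACA
bon, Smad2_peak409, chr20:43759011-43759453: ctaAATAAACA
MIXL1, Smad2_peak410, chr20:44301677-44302119: ctaAATAAACA
MIXL1, Smad2_peak411, chr20:44305178-44305826: ccgAATACACA
foxa, Smad2_peak189, chr14:34992713-34992915: ctgAATACACA
foxa, Smad2_peak190, chr14:35055804-35056006: ctgAATACACA

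Every stretch shown holds AATNNACA, but the peaks shown are a selection. Stretches not shown at foxa3, foxd3, lhx1a, tbx16, oep, spaw and acvr1b also held these letters. Those listed at sox32 and lhx1b (Smad2_peak801 and Smad2_peak696) did not. No stretch was listed for Smad2_peak342 at ntla, Smad2_peak312 at foxa3, Smad2_peak46 at oep, Smad2_peak108 at foxh1, Smad2_peak441 at ndr1 or Smad2_peak690 at tbx6. The same stretch was listed for 1 lft1 peak and 1 lft2 peak. The stretches of the bon and MIXL1 peaks came in identical pairs, as did those of the 2 foxa peaks. Such sharing was not particular to these genes. The lft stretch was also listed for Smad2_peak284, 1 of the bon stretches for Smad2_peak389, and the foxa stretch for 6 peaks in all, and the most frequent stretches were listed for 9 peaks each. Peaks with a listed Foxh1 stretch were higher and wider than those without one. Their median height was 24 tags (quartiles 15 and 34) over a median width of 361 bp, against 14 tags (11 and 19) over 279 bp in the 523 peaks without. Their median ratio of Smad2 to input was 4.50, against 3.56 in peaks without a stretch. Peaks were divided by height into 4 groups of about equal size. In the lowest group 22.7% had a listed stretch, and in the next groups 29.5%, 39.7% and 75.1%. Width moved with height over these groups, with medians of 228, 288, 344 and 425 bp, and a wider interval has more room for a match. The part of width in these shares was not tested.

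At the peaks the Smad2 signal was sharp, and input also stood above its own mean. Averaged over 896 peaks around the centre of the interval, Smad2 reached 13.9 times its genome-wide mean and input 3.07 times its own mean. At 250 bp from the centre Smad2 was at 3.13 and input at 1.33, and at 500 bp Smad2 was at 1.83 and input at 0.969. Input was thus back near its mean within 500 bp, whereas Smad2 was not. Over the stretch from 2 to 3 kb away Smad2 still averaged 1.70 times its mean, against 1.24 for input. Without the peaks that had another peak within 3 kb, the Smad2 average 500 bp out was 1.504 and input 0.914 (n = 780). From 2 to 3 kb away, Smad2 averaged 1.48 and input 1.23 at these 780 peaks, so neighbouring peaks raised the Smad2 value over all peaks. The averaged peak was 265 bp wide for Smad2 and 300 bp wide for input at 50% of its height above the surroundings.

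**Figure D1:**
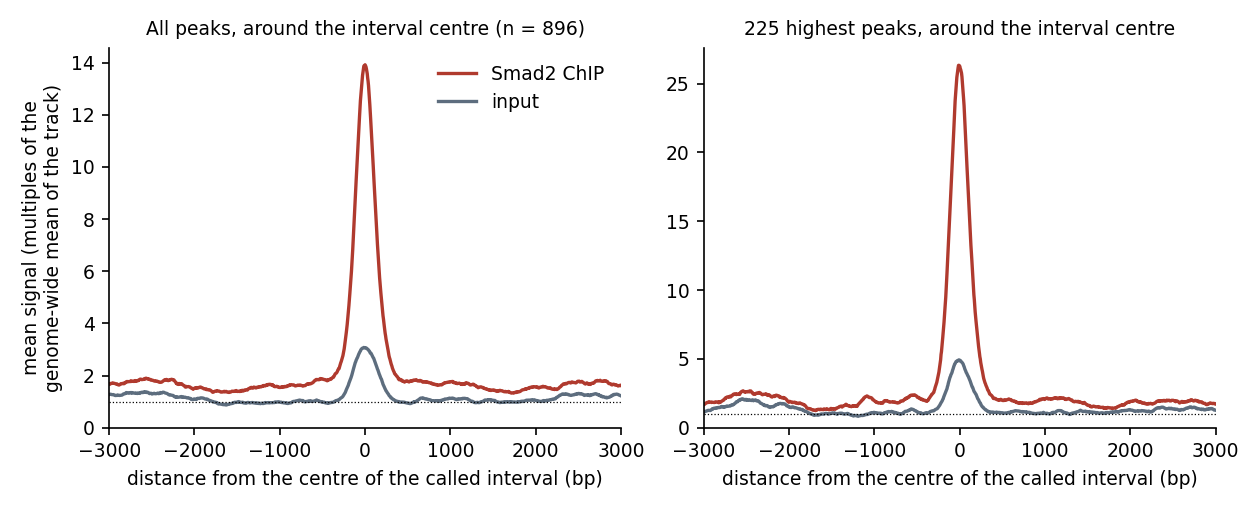
Mean Smad2 (red) and input (grey) signal, in multiples of the genome-wide mean of each track, against the distance in bp from the centre of the called interval; all peaks with 3 kb of sequence on both sides on the left, the 225 peaks of the highest of the 4 height groups on the right. The dotted line is the genome-wide mean, and the centre values are 13.9 for Smad2 and 3.07 for input over all peaks, and 26.3 for Smad2 and 4.87 for input over the highest group.

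Over the called intervals Smad2 had a median of 8.75 times its mean (quartiles 6.72 and 12.2) and input a median of 2.33 times its mean (quartiles 1.61 and 3.29). In 830 of 898 peaks (92.4%) input exceeded its genome-wide mean, and in 547 it exceeded 2 times that mean. Over all 1 kb windows on chr1 to chr25, input had a median of 0.791 times its mean. Its upper quartile there was 1.37 and its 95th percentile 2.67. The ratio of Smad2 to input could be formed at 891 peaks, since 7 peaks had no input tag in the interval. Its median was 3.90, with quartiles of 2.83 and 5.54. The ratio was at least 2 at 836 peaks (93.8%), whereas 14.2% of all 1 kb windows with input above 0 reached this ratio. These windows are longer than most called intervals, so the shares are not over like regions. The interval ratio was at least 5 at 283 peaks, at least 10 at 42 peaks, below 2 at 55 peaks and below 1 at 1 peak. Of the 55 peaks below 2, 19 were among the 37 peaks narrower than 100 bp.

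At the summit itself the median ratio was 5.03. There the counting interval (95%, exact) excluded 1 at 782 peaks and included 1 or less at 116 peaks. The peaks were called for Smad2 over input, and the summit is the highest Smad2 position of the interval. This ratio is therefore drawn upwards, its counting interval does not keep its 95% level, and these counts are no test of enrichment. Higher Smad2 peaks also stood on higher input. In the highest group by height the median input was 3.29 times its mean, and in the lowest group 1.65 times. Across the 898 peaks Smad2 and input levels had a Spearman's rho of 0.50, as a description over peaks that share the same 2 tracks. The median ratio was 5.11 in the highest group, against 3.45 in the lowest. The groups were divided by Smad2 height, which enters the ratio as its numerator, so that this order is favoured by how they were formed.

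**Figure D2:**
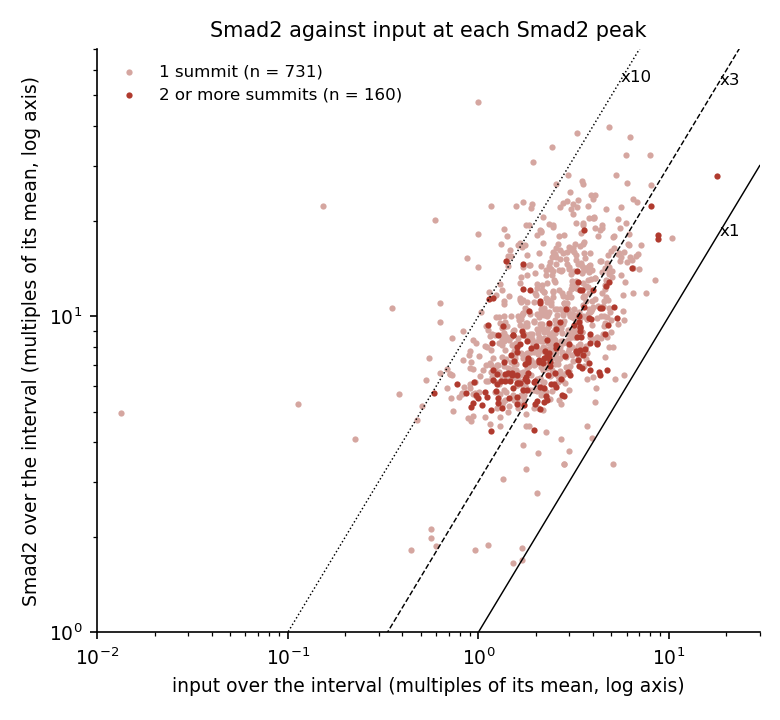
Smad2 (y axis) against input (x axis) over the interval of each of the 891 peaks with input above 0, both in multiples of the genome-wide mean of the track on log axes; dark points have 2 or more summits (n = 160) and light points 1 summit (n = 731). The lines mark equal signal, 3 times and 10 times input, and 1 peak lies below the line of equal signal.

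The 2 highest Smad2 peaks were at genes of the dorsal organizer. Smad2_peak233 at chd, which encodes the BMP antagonist Chordin, reached 114 Smad2 tags (9.06 tags per M tags) against 13 input tags at the summit. This is a ratio of 13.2 with a counting interval of 7.44 to 25.6. Smad2_peak130 at flh, a homeobox gene of the notochord, reached 110 Smad2 tags against 4 input tags, a ratio of 41.5 (15.8 to 155). It had the third highest ratio over the interval among peaks of at least 100 bp, 48.2, with Smad2 at 47.8 times its mean and input at 0.991 times. The next highest peaks were Smad2_peak595 at si:ch211-121i18.1 with 103 Smad2 tags against 19 input tags, and Smad2_peak785 at adamts18, which encodes a secreted metalloprotease, with 101 against 29. Smad2_peak174 at atrx, which encodes a chromatin remodeller, had 87 against 10. These 5 peaks were between 368 and 801 bp wide, and each had 1 summit.

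The 2 largest interval ratios came from intervals with almost no input. Smad2_peak717 on chromosome 6 had an interval ratio of 368, with only 8 Smad2 tags at its summit and no input tag there. The counting interval belongs to its summit ratio, not to the interval ratio, and reached down to 2.58. Smad2_peak151 on chromosome 13 followed with an interval ratio of 146. It had 38 Smad2 tags and no input tag at its summit, and its ratio there was at least 14.8 by the lower limit of the counting interval. Smad2_peak796, listed at the FGF ligand genes fgf4 and fgf3, had 40 Smad2 tags against 2 input tags and an interval ratio of 34.2. Input over its interval was 0.590 times the mean. Smad2_peak132, the third flh peak, had 21 against 1 and an interval ratio of 29.99.

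At the other end, among peaks of at least 100 bp, 3 had interval ratios of 1.43, 1.43 and 1.5. They were Smad2_peak833 with no listed gene, Smad2_peak782 at gpatch1 and LRP3, and Smad2_peak86 at id1, which encodes an inhibitor of helix-loop-helix factors. Their summits had 9, 13 and 11 Smad2 tags against 6, 10 and 9 input tags, and the counting interval of each summit ratio included 1. The highest input lay under Smad2_peak297 on chromosome 18, at CABZ01056274.1, where input averaged 17.8 times its mean. Smad2 averaged 27.9 times its mean there, with 64 Smad2 tags against 68 input tags at the summit. It was thus among the higher Smad2 peaks and had one of the lowest ratios, 1.56. Smad2_peak334 and Smad2_peak294 followed with input at 10.4 and 8.80 times its mean, and ratios of 1.70 and 2.05.

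The called intervals had a median width of 308.5 bp, and 711 of 898 were between 150 and 500 bp wide. The core width, the run of positions around the summit with at least 50% of the summit's tags, was narrower, with a median of 195 bp (quartiles 160 and 270 bp). A single tag spans about 132 bp, so the narrowest peaks were at the limit set by the tag length. In 655 peaks (72.9%) the core width was no more than 2 tag lengths, and in 25 peaks it exceeded 500 bp. Interval width increased with height (Spearman's rho 0.60 over 898 peaks), whereas core width did not (rho -0.14). Between interval ratio and width rho was 0.00, but the relation was not monotonic. The median ratio was 1.78 in peaks under 100 bp and 3.2 in peaks over 600 bp, both below the 3.90 over all peaks. Smad2 minus scaled input was summed over each interval, and over the interval with 1 kb on each side. The first sum had a median of 68.8% of the second (n = 892 peaks). Positions where input exceeded Smad2 entered as negative values, so this is not a true share, and its 90th percentile was 104%.

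The summit lay close to the middle of the interval. Its median distance from the centre was 38.8 bp, or 13.1% of the width. It fell within 50 bp of the centre in 553 peaks (61.6%) and within 100 bp in 797 (88.8%). The centre of mass of the signal was nearer still, at a median of 12.3 bp. In 49 peaks the highest value was at the edge of the interval, so that the true summit may lie outside. Of these, 28 were among the 37 peaks under 100 bp, and 21 among the other 861. In 85 peaks a higher value stood within 300 bp outside the interval, 34 of them among the narrow ones. The narrow peaks had a median height of 5 tags and a median ratio of 1.78, against 3.92 in peaks of at least 100 bp. The list holds regions found in both reactions, and 2 of its intervals were listed with a width of 0.

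**Figure D3:**
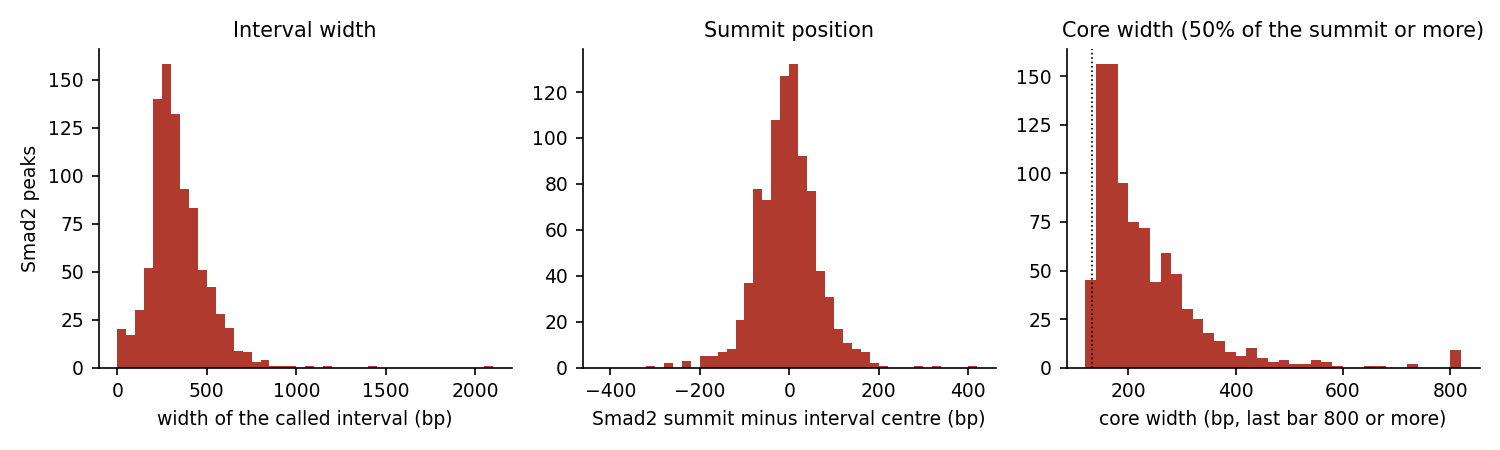
Number of the 898 Smad2 peaks by width of the called interval in bp, by position of the Smad2 summit relative to the interval centre in bp, and by core width in bp, the run of positions with at least 50% of the summit's tags. The dotted line in the right panel marks the length of a tag, about 132 bp. The medians are 308.5 bp for interval width and 195 bp for core width, and 797 summits lie within 100 bp of the centre.

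Most peaks had 1 summit. A further summit was counted where the track rose again by at least 30% of the peak height and by at least 3 tags. By this rule 738 peaks had 1 summit, 145 had 2, 12 had 3 and 3 had 4 or more, so that 160 peaks (17.8%) had more than 1. From the lowest to the highest group by height the share was 29.3%, 21.4%, 15.6% and 4.89%. When a rise also had to exceed 2 times the square root of the height, a measure of counting scatter, 26 peaks had more than 1 summit. After smoothing with a running mean of 55 bp, 44 peaks (4.90%) still had more than 1 summit, all of them among the 160. In these 44 the 2 highest summits were a median of 222.5 bp apart, with a range of 155 to 610 bp, and the signal between them fell to a median of 49.2% of the lower one. Their median width was 447.5 bp, against 305 bp in the other peaks.

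The widest peaks had the most summits and low ratios. Smad2_peak508 on chromosome 23, at hnrnpa1, nfe2 and cbx5, was 2055 bp wide with 5 summits, of which 4 remained after smoothing. Smad2_peak733 at the myc family gene mych was 1434 bp wide with 4 summits, 3 after smoothing. Smad2_peak481 at hmga1a, which encodes a high-mobility-group chromatin protein, was 1150 bp wide with 3 summits, 2 after smoothing. Smad2_peak201 at the RNA-binding protein genes hnrnpa0 and hnrnpa0l was 1051 bp wide with 4 summits, 2 after smoothing. Their heights were 28, 23, 24 and 21 tags, and Smad2 exceeded input by ratios of 2.63, 2.38, 1.91 and 1.84. Input was between 4.45 and 5.35 times its mean in these 4 peaks. The 51 peaks over 600 bp had a median ratio of 3.2 and a median input of 3.56 times its mean, against 3.90 and 2.33 over all peaks.

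Neighbouring peaks were mostly separate. Within 1 kb of another peak lay 65 peaks (7.24%), which formed 37 neighbouring pairs. The summits of a pair were a median of 657 bp apart, and the lowest Smad2 value between them was a median of 11.1% of the lower summit. It was under 25% in 25 pairs and over 50% in 4. At flh 3 peaks of 110, 76 and 21 tags had summits 1000 and 1305 bp apart, and the Smad2 signal fell to 0 tags in both gaps. At foxa3, a forkhead gene expressed in endoderm, 2 intervals only 62 bp apart had summits of 64 and 47 tags with 9 tags between them. Peaks 383 and 382, at si:ch211-139k8.4, were less separated, with 12 tags between summits of 19 and 21.

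**Figure D4:**
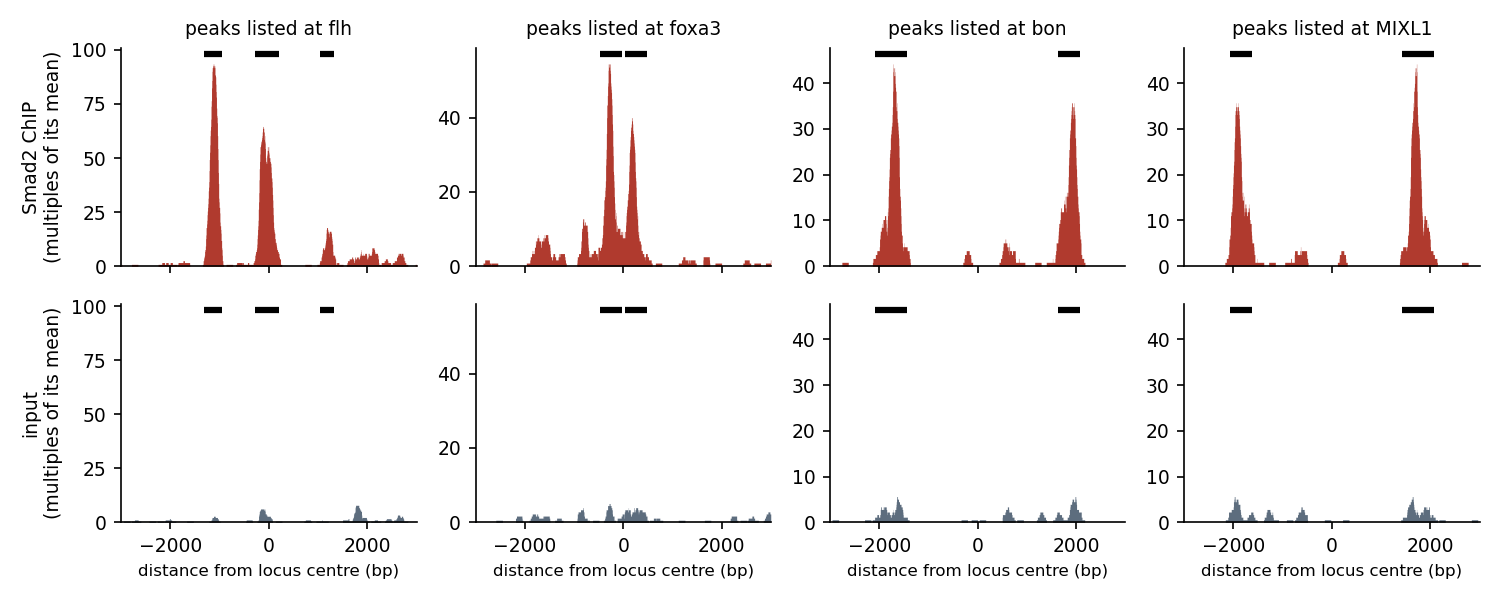
Smad2 (upper row, red) and input (lower row, grey) over 6 kb around the peaks listed at flh, foxa3, bon and MIXL1, in multiples of the genome-wide mean of each track, against the distance in bp from the middle of the locus; both rows of a column have the same y axis and black bars are the called intervals. The 2 MIXL1 peaks are the mirror image of the 2 bon peaks, with heights of 42 and 52 tags in both.

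Some peaks carried the same profile at 2 places. Peaks were compared in pairs over 400 bp on each side of the summit, in both orientations, and a pair was called matched where both the Smad2 and the input tracks differed by at most 10% of their joint signal. There were 17 such pairs among 34 peaks, 14 of them on the same chromosome and 4 in opposite orientation. In 13 pairs the Smad2 heights were equal, and in 13 the widths. At bon, a Mix-type homeobox gene of endoderm formation, Smad2_peak408 and Smad2_peak411 differed by 0.061% and both had 52 tags. Smad2_peak409 and Smad2_peak410 differed by 1.48% and both had 42 tags. The peaks 410 and 411 are listed at MIXL1, 543 and 550 kb away on chromosome 20, and carry the same Foxh1 stretches as the bon peaks in reverse order. Peaks 198 and 199 on chromosome 14, and peaks 110 and 111 on chromosome 12, did not differ at all over the compared positions. A run of 3 peaks on chromosome 2, 382 to 384, was matched by peaks 492 to 494 on chromosome 23. Since the alignment also kept reads that fit a second place, a read from such regions can be drawn at both. With pairs matched by this rule counted once, the 898 peaks are 881 profiles, with a median ratio of 3.90. Peaks that look alike but did not meet the rule stayed separate. Examples are peaks 189 and 190 at foxa, both 203 bp wide with 28 tags. The number of separate profiles may therefore be lower.

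Peaks listed at genes of the Nodal pathway and of the germ layers it induces were higher than most. The gene lists were put together with results of these data known, and the counts are descriptions. At 7 of the 14 Nodal pathway genes in the list there were 9 peaks. Of these 9 peaks, 8 were above the median height of all peaks, as were 448 of all 898 peaks. How often genes of each list had a peak, relative to all genes, was not analysed here. Their median height was 36 tags and their median ratio 6.43, against 16 tags and 3.90 over all peaks. Smad2_peak263 and Smad2_peak264 at lft2 had 70 and 36 Smad2 tags against 14 and 2 input tags. Smad2_peak706, listed at the Nodal ligand gene spaw, had 62 against 4. Smad2_peak407 at lft1 had 50 against 8, and Smad2_peak497 at acvr1b, which encodes a type I activin receptor, had 37 against 8. The only peak listed at the ligand gene ndr1, Smad2_peak441, was low. It had 15 Smad2 tags against 12 input tags, a summit ratio of 1.89 whose counting interval (0.825 to 4.42) included 1.

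At 5 of the 11 endoderm genes in the list 8 of 9 peaks were above the median height, and the median ratio was 7.74. Among them were the foxa3 peaks, the bon and MIXL1 peaks with their repeated profiles, and sox32, the Sox factor required for endoderm. The matched bon and MIXL1 peaks were counted separately here, so the 9 peaks hold fewer separate profiles. The median ratio of 7.74 is that of Smad2_peak410, 1 of these matched peaks. Likewise bon and MIXL1 were counted as 2 of the 5 genes, and whether they are separate genes was not analysed. Smad2_peak801 at sox32 was the lowest with 15 Smad2 tags against 5 input tags. The peaks 189 and 190 at foxa both had 28 Smad2 tags against 4 input tags and the same Foxh1 stretch. At 3 of 6 T-box genes of early mesoderm, 5 peaks had 18 to 74 tags and ratios of 3.43 to 10.5. The highest was Smad2_peak838 at tbx16 with 74 against 8. Both ntla peaks, Smad2_peak342 and Smad2_peak343, were near it with 59 against 14 and 52 against 9.

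At 6 of 12 organizer genes 9 peaks spanned heights of 13 to 114 tags, the widest range of these lists. After chd and flh, the highest was Smad2_peak270 at the homeobox gene gsc with 39 Smad2 tags against 13 input tags, followed by Smad2_peak722 at foxd3 with 28 against 14. The lowest interval ratios of the 9 were 2.79 at foxd3 and 3.13 at lhx1b. At 8 of 12 genes of FGF ligands and their feedback regulators 9 of 11 peaks were above the median height, with a median of 37 tags. The median ratio of these 11 peaks was 3.99, close to that of all peaks. The highest was Smad2_peak844 at fgf17 with 75 Smad2 tags against 5 input tags. Of the others, Smad2_peak552 at the FGF-induced phosphatase gene dusp6 had 44 against 15, and Smad2_peak143 at fgf8a 43 against 2. At 8 of 11 genes of Wnt and BMP signalling 10 of 11 peaks were above the median height, and the median ratio was 4.66. Smad2_peak167 at the ventral homeobox genes vox and vent had 68 against 16. Smad2_peak681 and Smad2_peak682 at wnt11 had 67 against 7 and 62 against 23. Smad2_peak624 at NOTUM, which encodes a secreted Wnt inhibitor, had 60 against 10. Each of the 5 genes in a list of left-right and later mesoderm genes had a peak. All 8 peaks of that list were above the median height, with a median ratio of 4.82.

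The list of histone genes was taken from genes with a peak, so that every gene in it has one. The 12 histone genes had 33 peaks, in several clusters of near-identical genes, and resembled the whole list in height but not in ratio. Their median height was 17 tags, against 16 over all peaks, and their median ratio 2.99, against 3.90. Only 13 of the 33 were above the median ratio of all peaks. The highest, at h2afvl and h3f3a, had 32 tags, and the 3 next had 31, 25 and 24. Reads from near-identical histone genes can be placed at more than 1 copy.

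Outside the peaks, a window of 1 kb was called rich in Smad2 where Smad2 was at least 4 times its mean and at least 3 times the scaled input. Of 1357018 windows 466 were rich (0.0343%). Among the 1184 windows that touched a peak 274 (23.1%) were rich, and 515 had Smad2 at least 4 times its mean. The other 192 rich windows, 41.2% of them, touched no peak. With the tracks exchanged, so that input had to be at least 4 times its mean and 3 times Smad2, 1237 windows were called (0.0912%), none of which touched a peak. Far more windows outside peaks were thus rich in input than in Smad2. However, input reached 4 times its mean in 18221 windows and Smad2 in 7955, so more windows could meet the exchanged rule. Its count therefore gives no background rate for the 192 windows, which were not counted as bound regions. With 1 genome-wide mean added to the input, 21 Smad2-rich windows remained outside peaks.

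Over all windows the tracks moved together, with a Spearman's rho of 0.79 over windows of the same 2 tracks. The median ratio of Smad2 to input was 1.05 over 1279344 windows with input above 0, and 5% of them were below 0.307 and 5% above 3.09. When windows were grouped by input, the median ratio was 1.15 where input was between 0.5 and 1 times its mean, 0.769 between 2 and 4 times and 0.445 at 8 times and more. Input is the denominator of the ratio, so that counting scatter in it lowers the ratio of windows grouped as high in input, and its share in this order was not tested.

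Most rich windows outside peaks lay more than 10 kb from one, but the share at 1 to 10 kb was above that of all windows. Of the 192 windows, 30 lay within 1 kb of a peak, 47 at 1 to 10 kb and 115 farther away. The 47 windows are 24.5% of the 192, whereas 1.003% of all windows outside peaks lay at that distance. The share of all windows that lay within 1 kb of a peak was not measured. The windows formed 175 regions, 161 of which were a single window and the longest 4 windows. Their highest Smad2 values had a median of 17 tags (quartiles 14 and 24), and in 106 regions they reached at least 16 tags, the median height of the called peaks. The input at these positions had a median of 5 tags, as at the summits of the called peaks. The windows were picked for high Smad2 and for low input relative to it. This likeness to called peaks is therefore favoured by the rule and is no support for binding.

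One region stood far above the others. The window chr14:53513001-53514000 had Smad2 at 38.2 times its mean and input at 2.42 times, with a highest value of 90 Smad2 tags against 9 input tags at the same position. Among the 898 called peaks 4 were higher. It lay 842 bp from Smad2_peak208 (27 tags). The flanks of that peak, 1 to 2 kb away, averaged 20.1 times the mean for Smad2 and 2.17 times for input. They take in most of this same window and also another called peak, so these averages are no separate support for the window. Whether only 1 of the reactions had a peak there cannot be told from a single track. The next 4 regions were chr25:37380001-37381000 with Smad2 at 12.7 times its mean and 29 tags, chr10:55001-57000 at 12.7 times and 79 tags, chr22:41425001-41426000 at 11.7 times and 68 tags, and chr25:37401001-37402000 at 11.6 times and 29 tags. Their ratios to input were 3.74, 6.78, 3.37 and 3.23. Both chromosome 25 regions lay close to called peaks, at 336 and 298 bp, whereas the chromosome 10 region was 193562 bp from the nearest one.

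**Figure D5:**
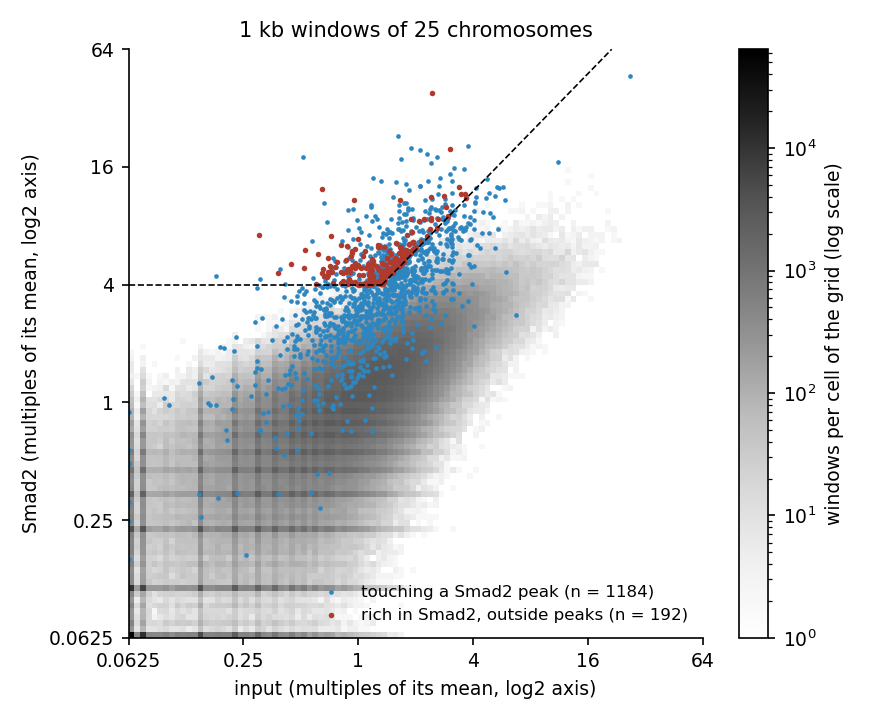
Smad2 (y axis) against input (x axis) in 1 kb windows of 25 chromosomes, in multiples of the genome-wide mean of each track on log2 axes; grey shading gives the number of windows in each cell of the grid, blue points are the 1184 windows that touch a Smad2 peak and red points the 192 Smad2-rich windows outside peaks. The dashed line is the limit for a rich window, and values below the axis are drawn at its lower end.

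Of 68 regions within 10 kb of a peak, 19 had as their nearest a peak at a gene of the lists used here, 13 of these a histone gene. Of all 898 peaks, 95 were at such genes, 33 of them at histone genes. The other 6 were chosen for mention after their values were seen. These 6 are named by the gene listed for their nearest peak, and their distance from the gene itself was not measured. At ndr1, 2 adjacent windows, chr21:19838001-19840000, reached 24 Smad2 tags at 5.50 times the mean, with input at 1.30 times its mean. They lay 7669 bp from the called ndr1 peak. Their highest value exceeded the 15 tags of that peak, but the peak averaged 8.63 times the mean over its shorter interval of 543 bp. At flh, 2 windows at 3687 and 9687 bp from the third peak had 16 and 17 Smad2 tags, against 11 and 10 input tags there. Their ratios over the window, 3.03 and 3.16, were only just above the limit of 3. At oep, which encodes the Nodal co-receptor, a window between the 2 called peaks reached 12 Smad2 tags against 1 input tag. Its ratio over the window, 3.09, was also close to the limit. At sp5l, a target of Wnt signalling, a window 4149 bp from the peak had 20 Smad2 tags against 4 input tags. At wnt8a 2 windows 605 bp from the peak had up to 19 against 2. The ratios over these windows were 4.46 and 3.50.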

How the data were processed

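Per the labels, 2 Smad2 reactions and 2 inputs were sequenced. The authors aligned reads to Zv9 using Bowtie, where a read could fit 2 places, called peaks with MACS against paired input, and kept regions found in both reactions. The deposited tracks hold a signal, the MACS pileup of tags in 5 bp steps, without a correction for depth. Whether a track holds both reactions, and which input, is not stated. The other number in the deposited peak list is the width of each region.

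Each track was divided by its mean over all sequences (1412 Mb). Tag length was read from isolated runs of 1 tag, and tags in total from the summed signal. Summits are midpoints of the highest plateau. Intervals of summit ratios are exact conditional binomial (Clopper-Pearson, 95%). Measures were tested on simulated tracks (Python 3.11.15, numpy 2.4.6, scipy 1.17.1). No test between groups was made. Members, lists and rules were chosen with earlier results of these data known. Named peaks are the 5 highest summits, the 5 highest and 3 lowest ratios among peaks of at least 100 bp, the 3 widest, the 3 with most summits, the 3 of highest input, up to 5 a list, and the 5 rich regions with the most Smad2. The peaks named at ndr1, sox32, foxa and lhx1b, the neighbouring and matched examples and Smad2_peak208 were chosen after their values were seen. Alternatives covered scaling, pseudocount, prominence, smoothing, peak width and window limits. Eomesa files were not used here.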

Additional observations from a re-analysis of the deposited data

How the results depend on the processing

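No paired analysis was possible because the tracks and the peak list carry no replicate numbers and no test was made, and for the same reason no replicate could be left out. There were 33 alternatives, 26 planned and 7 chosen after seeing the data. Of these, 16 gave a count within 1.5 times the reported one, or a median within the 95% interval of the reported median over peaks. The other 17 did not. That interval treats peaks as independent, although they share the same tracks. It served only as a limit for this sorting and measures no error between replicates. The median ratio at peaks was 3.61 when tracks were scaled to the median of windows outside peaks, 2.96 with 1 mean added to both signals and 5.03 at the summit. Peaks with more than 1 summit numbered 285 at a prominence of 20%, 31 at 50%, 44 after smoothing, 309 with 200 bp added on each side, and 26 when a rise also had to exceed 2 times the square root of the height. The median distance from the centre was 12.3 bp for the centre of mass. The median half-height width was 160 bp with input subtracted, and 160 bp above the flanks. Smad2-rich windows outside peaks numbered 660 at a ratio of 2, 50 at a ratio of 5, 483 at a level of 3, 47 at a level of 6, 21 with 1 mean added to input, and 1307 in windows of 500 bp. The cause of these shifts was not tested, and the counts of summits and of rich windows hold only for their limits. Under the 5 other window limits tried with the tracks exchanged, input-rich windows outnumbered Smad2-rich ones, by 5922 against 660 at a ratio of 2 and by 82 against 50 at a ratio of 5.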
